A study of Mus musculus with 10 samples.

Results

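The comparison set motor neurons made from fibroblasts against motor neurons taken from mouse embryos. The induced group holds 2 arrays of Hb9::GFP+ cells that were reprogrammed from fibroblasts of mouse embryos. For this 10 transcription factors, unnamed in the labels, were overexpressed. There is 1 array from the GFP-high gate and 1 from the GFP-medium gate. The embryonic group holds 4 arrays of Hb9::GFP+ cells from spinal cord dissected at E13.5 (days after conception), with replicates 1 and 2 in each gate. All 6 arrays carried the Hb9::GFP transgene, in which the promoter of the motor neuron gene Hb9 (Mnx1) drives green fluorescent protein, on a C57BL/6 background. They were chosen by their sample titles from the 10 arrays of the series, and the other 4, of motor neurons grown from embryonic stem cells, were left out. Cells were purified by fluorescence-activated sorting, and amplified RNA was hybridised to Illumina MouseRef-8 bead arrays. Whether replicates came from different animals or cultures is not given in the labels. The p-values therefore rest on the spread between arrays, part of which may be technical.

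Spinal motor neurons are the cholinergic cells that drive muscle, and their identity is set by homeodomain factors such as Mnx1, Isl1 and Lhx3. Their position along the cord is encoded by Hox genes, with higher paralog numbers toward the tail. Direct reprogramming forces a fibroblast into another cell type through introduced transcription factors, without the embryo's sequence of patterning and progenitor stages. Since the introduced factors are not named, signal from an introduced copy cannot be told apart from signal of the cell's own gene.

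The arrays differed in brightness, with the induced arrays inside the embryonic range. Mean deposited intensity was 166 and 140 on the induced arrays and 51.3 to 474 on the embryonic ones, and the number of detected probes was 8646 and 8182 on the induced arrays against 6921 to 11441. Embryonic GFP-medium replicate 1 was the dimmest array, and results are also given without it. Across genes, each array's median correlation with the embryonic arrays was 0.845 and 0.848 for the induced arrays and 0.911 to 0.939 for the embryonic ones. Embryonic GFP-high replicate 1 and GFP-medium replicate 2 correlated at 0.979. The embryonic pairs of the same gate were lower, at 0.934 (GFP-high) and 0.911 (GFP-medium). Of the markers of the labelled cell type, Isl1 and Chat were detected on all 6 arrays, Isl2 on the 4 embryonic arrays only and Mnx1 on the 2 induced arrays only. Lhx3 was detected on 1 embryonic array, and Slc18a3, the vesicular acetylcholine transporter, on none, so neither was tested. The probes used for Snap25 and Nefl, which neurons express, were also detected on no array.

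Of 9245 features measured, 1140 (12.3%) differed between induced and embryonic cells, 515 (5.57%) higher and 625 (6.76%) lower. A feature here is a gene or an unnamed probe, and the calls are those with an adjusted p (Benjamini-Hochberg, over all features) below 0.05 from limma, with the GFP gate in the model. Values are normalized log2 intensities, and differences are induced minus embryonic on that scale, as value ± SE. The median over all features was -0.03. At an unadjusted p under 0.05 there were 2649 features (28.7%). The induced arrays lay wholly above or wholly below the embryonic ones for 1137 of the 1140 called features and for 41.4% of all features. The number called rests on few arrays. It was 178 without the induced GFP-high array, 210 without the induced GFP-medium array, 728 without embryonic GFP-high replicate 1 and 1924 without the dimmest array. With scaling to equal medians in place of quantile normalization it was 11, and the signs of 1139 of the 1140 called features were as before. Members of a group that are detected in 1 origin only had to be higher there to be measured at all. The counts of called members below therefore describe the lists and support nothing about them. They are to be read beside the shares of all features, 5.57% higher and 6.76% lower. In bulk samples, fewer cells of a type and less RNA per cell cannot be told apart.

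**Figure D1:**
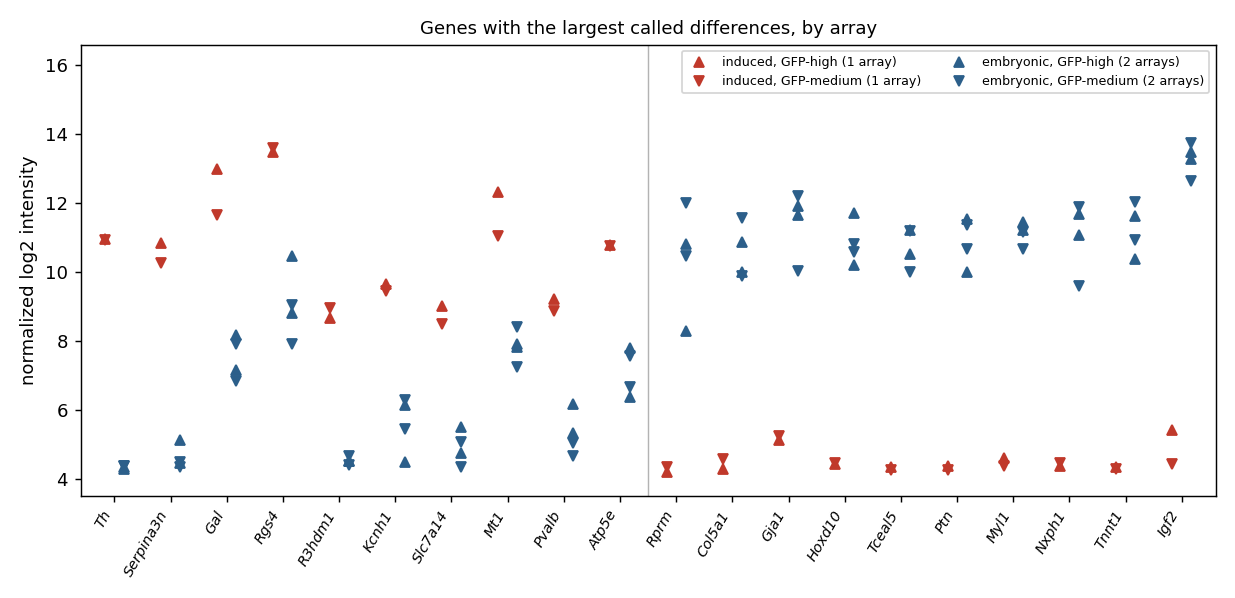
Normalized log2 intensity (y axis) of the 10 genes with the largest called rise and the 10 with the largest called fall, 1 column a gene, with induced arrays in red left of embryonic arrays in blue (upward triangles GFP-high, downward triangles GFP-medium). In each gene the red and blue points do not overlap; Th lies near 10.93 in the induced cells and Igf2 between 12.63 and 13.73 in the embryonic ones.

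The largest rise was in Th, which encodes tyrosine hydroxylase, the enzyme that starts dopamine and noradrenaline synthesis. Values are given throughout as induced GFP-high and GFP-medium, then embryonic GFP-high 1, GFP-medium 1, GFP-high 2 and GFP-medium 2. Th read 10.94 and 10.93 in induced cells, against 4.35, 4.35, 4.27 and 4.36 in embryonic cells. The difference was 6.60 ± 0.32 (adjusted p = 4.77e-05), and since no embryonic array detected Th, the fold is a bound: it was at least 60.1-fold higher. For such a bound the undetected group is represented, on each array, by the lowest detected value or the gene's own value, whichever was higher. Among the other catecholamine and autonomic genes, Tfap2b and Tfap2a, transcription factors of the AP-2 family, and Gch1, which makes the cofactor that tyrosine hydroxylase needs, also rose. Tfap2b read 10.73 and 10.59 in induced cells, against 9.34, 8.44, 8.01 and 9.04 in embryonic cells, and Gch1 read 7.76 and 6.94 in induced cells, against 5.98, 4.90, 5.80 and 6.11 in embryonic cells. The 4 that rose were 4 of 7 measured of 16 on the array, and none fell, against 5.57% of all features higher. The other 3 measured were Ddc, which converts L-DOPA to dopamine, at -0.81, the noradrenaline transporter gene Slc6a2 at -0.51 and Gata2 at -0.27. Dbh and Slc18a2, the noradrenaline-making enzyme and the vesicular monoamine transporter, were among the 9 that no 2 arrays detected. The count of 4 was 2 without either embryonic GFP-high array and 1 without either induced array.

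The promoter of Th, from 250 bases before to 50 after the gene's start, holds the cyclic AMP response element in its full 8-letter form (in capitals), and it is shown because Th is the largest rise. TGACGTCA, searched on both strands, occurs in 1.79% of 32851 promoters of RefSeq's GRCm38.p6 table and, counted by gene, for 1 of the 4 catecholamine genes that rose. It lies 45 to 38 bases before the start of Th, at chr7:142899946-142900245 on the minus strand.
Th: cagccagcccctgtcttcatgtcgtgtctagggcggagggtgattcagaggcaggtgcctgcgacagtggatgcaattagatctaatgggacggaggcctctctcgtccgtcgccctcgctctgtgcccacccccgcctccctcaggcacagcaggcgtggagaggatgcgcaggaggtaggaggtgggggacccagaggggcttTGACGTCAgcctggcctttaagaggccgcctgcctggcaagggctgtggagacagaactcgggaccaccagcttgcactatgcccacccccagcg
The match is a description and not a site at which a factor was measured.

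Other genes that rose were known for secretion, excitability and metal binding. Gal, the neuropeptide galanin, read 12.97 and 11.65 in induced cells, against 8.18, 7.89, 7.16 and 6.83 in embryonic cells, a difference of 4.80 ± 0.47. Serpina3n, a secreted protease inhibitor, read 10.84 and 10.27 in induced cells, against 4.46, 4.49, 5.11 and 4.34 in embryonic cells (5.95 ± 0.35; adjusted p = 7.5e-05). The induced arrays lay above every embryonic array in both. Among 14 measured neuropeptide and granule protein genes 4 rose and 3 fell, against 5.57% higher and 6.76% lower among all features. Their median was -0.06. Vgf, a granule protein, was detected on both induced and no embryonic array (6.95 and 6.60 in induced cells, against 4.62, 4.44, 4.57 and 4.53 in embryonic cells), and Chga, chromogranin A, read 10.06 and 10.13 in induced cells, against 8.14, 8.42, 7.56 and 7.85 in embryonic cells. Pdyn and Npy, precursors of dynorphin and of neuropeptide Y, fell by 2.77 and 2.54, though another probe of Pdyn had the opposite sign. Mt1, a metallothionein that binds zinc, read 12.32 and 11.04 in induced cells, against 7.83, 7.25, 7.92 and 8.40 in embryonic cells, and Kcnh1, a voltage-gated potassium channel, read 9.66 and 9.45 in induced cells, against 6.12, 6.29, 4.48 and 5.44 in embryonic cells. Slc7a14 was 3.84 ± 0.39 and Rgs4, which limits G protein signalling, 4.50 ± 0.57. R3hdm1, which is named here for its size alone, read 8.66 and 8.96 in induced cells, against 4.51, 4.38, 4.51 and 4.65 in embryonic cells, a difference of 4.30 ± 0.33, and another of its probes was detected on 1 embryonic array. Without the induced GFP-high and GFP-medium arrays, the neuropeptide list held 1 and 1 rises and 1 and 0 falls.

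A further 4 genes were detected on the induced arrays only, by the rule that names the largest bounds. Ntsr2, a neurotensin receptor, read 8.30 and 8.22 in induced cells, against 4.59, 4.46, 4.85 and 4.48 in embryonic cells, at least 9.39-fold higher. Sprr2f was at least 8.02-fold higher, Opalin, a myelin-associated membrane protein, 4.78-fold and Wnt10a, a secreted Wnt ligand, 3.84-fold. In all, 89 features were detected, by the probe used, on both induced and no embryonic array, and 48 of these were called. The converse class, which requires other numbers of arrays, was larger: 311 features were detected on all 4 embryonic and no induced array, and 224 of these fell. The embryonic arrays, except the dimmest, detected more probes than the induced ones, and the part of that in this difference was not tested.

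Mnx1, the gene whose promoter drives the reporter, read 6.64 and 6.51 in induced cells, against 4.50, 4.69, 4.75 and 4.52 in embryonic cells. It was 1.96 ± 0.33 higher (adjusted p = 0.00724), at least 2.93-fold, and whether the introduced factors include it is not given in the labels. Isl1 read 11.03 and 10.85 in induced cells, against 9.68, 10.77, 11.90 and 10.20 in embryonic cells, so the groups overlapped and the difference was 0.30 ± 0.57 (adjusted p = 0.77). It changed sign under median scaling (-0.051) and without embryonic GFP-high replicate 1 (-0.17). Chat, the acetylcholine-making enzyme, read 7.59 and 6.42 in induced cells, against 5.38, 7.97, 8.17 and 5.37 in embryonic cells. Its embryonic arrays spanned a wider range than the induced ones, and the difference of 0.28 ± 0.87 (adjusted p = 0.864) turned negative under median scaling (-0.20) and without the induced GFP-high array (-0.25), embryonic GFP-high replicate 1 (-0.39) or embryonic GFP-medium replicate 2 (-0.20). Ebf1, a transcription factor of postmitotic neurons, read 4.92 and 4.54 in induced cells, against 7.88, 8.22, 7.27 and 8.08 in embryonic cells and fell by 3.13, and no induced array detected it. Isl2 was -1.14 ± 0.40 (adjusted p = 0.0957) and Lhx4 -0.98 ± 0.84. In the list of motor neuron transcription factors, 1 of 9 measured (of 11) rose and 1 fell, with a median of -0.98, which was -0.22 without the dimmest array, -0.30 without the induced GFP-high array, 0.13 without the induced GFP-medium array and 0.03 with no filter on dim probes. The rise was lost without either induced array and the fall without the induced GFP-medium array.

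**Figure D2:**
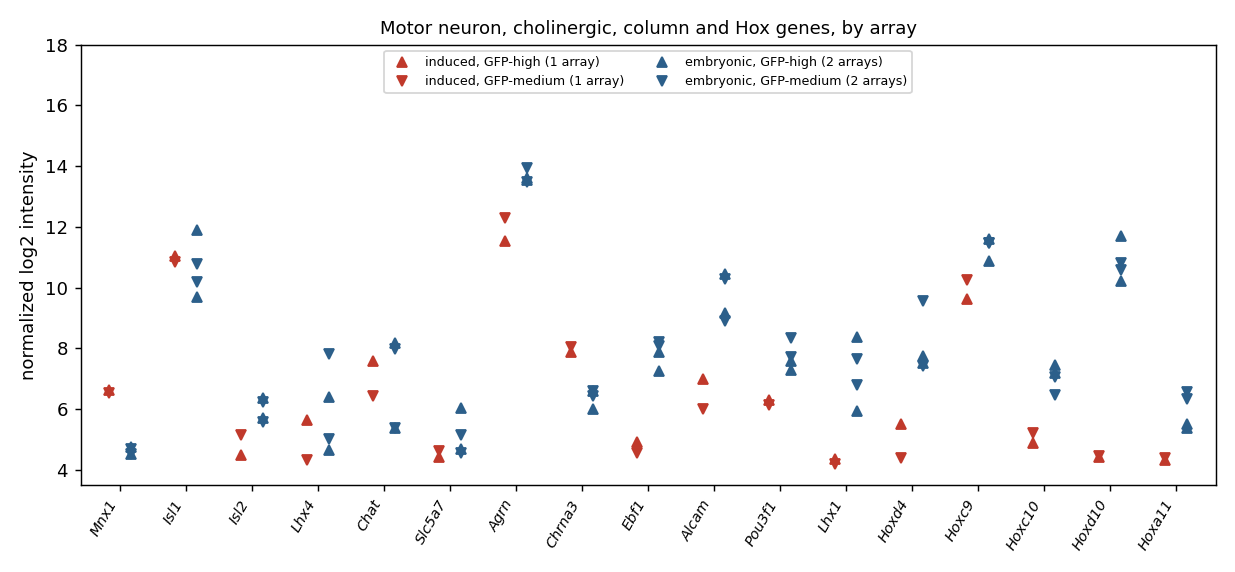
Normalized log2 intensity (y axis) of motor neuron, cholinergic, column and Hox genes, 1 column a gene, with induced arrays in red left of embryonic arrays in blue (upward triangles GFP-high, downward triangles GFP-medium). Isl1 and Chat overlap between the groups, while Hoxd10 and Agrn lie below every embryonic array in the induced cells.

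Of 10 measured cholinergic and neuromuscular genes (of 14), 1 rose and 1 fell, with a median of -0.30. Among all features 5.57% were higher and 6.76% lower. Agrn, agrin, which clusters acetylcholine receptors under the nerve ending, read 11.52 and 12.28 in induced cells, against 13.62, 13.47, 13.54 and 13.93 in embryonic cells, a difference of -1.74 ± 0.35. Chrna3, a nicotinic receptor subunit known from autonomic neurons, read 7.86 and 8.06 in induced cells, against 6.02, 6.58, 6.59 and 6.43 in embryonic cells. Slc5a7, the choline transporter, read 4.43 and 4.62 in induced cells, against 4.69, 5.15, 6.04 and 4.56 in embryonic cells and overlapped between the groups. Neither call of this list was made without either induced array, and the rise was not made without embryonic GFP-high replicate 1. Motor column and pool genes fell in 4 of 10 measured. Alcam, a cell adhesion molecule, read 7.003 and 6.02 in induced cells, against 9.17, 8.89, 10.43 and 10.29 in embryonic cells, and Lhx1, a homeodomain factor of lateral motor column neurons, read 4.34 and 4.18 in induced cells, against 8.37, 6.78, 5.94 and 7.64 in embryonic cells, with no induced array detecting it. Pou3f1, known from phrenic motor neurons, fell by 1.52 and Cdh8, a cadherin, by 2.06. Their count was 1 without the induced GFP-high array and 0 without the induced GFP-medium array.

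In Hox paralogs 10 to 13, of the lumbar and sacral cord, 3 of 6 measured fell (Hoxd10, Hoxc10 and Hoxa11), against 6.76% of all features. Hoxd10 read 4.43 and 4.44 in induced cells, against 11.70, 10.59, 10.20 and 10.82 in embryonic cells, at least 47.5-fold lower, with every embryonic array above both induced ones. Hoxc10 was -1.996 ± 0.38 and Hoxa11 -1.58 ± 0.36, and no induced array detected Hoxa11. The probe used for Hoxc10 was detected on no induced array, and another of its probes on 1. In paralogs 1 to 5, of the hindbrain and neck, 1 of 10 was called, and Hoxd4 fell by 3.11. In paralogs 6 to 9, 1 of 9 fell: Hoxc9, a thoracic gene, read 9.63 and 10.26 in induced cells, against 11.59, 11.45, 10.87 and 11.48 in embryonic cells, so it was detected in both origins. Median differences of the 3 Hox lists were -1.27, -0.82 and -0.35 in the order given. The 3 falls of paralogs 10 to 13 were 1 without either induced array, and 2 without embryonic GFP-high replicate 1 or GFP-medium replicate 2. The 1 fall of paralogs 1 to 5 was 0 without the induced GFP-medium array, 3 without embryonic GFP-high replicate 2 and 2 without the dimmest array. The 1 fall of paralogs 6 to 9 was 3 without the dimmest array, 1 without embryonic GFP-high replicate 2 and 0 without each of the other 4 arrays.

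Genes of muscle, connective tissue and blood were among the falls. Among muscle genes 11 of 16 measured (of 24 on the array) fell and none rose, against 6.76% of all features lower. The median was -3.20, and 10 of the 16 were detected on no induced array. Tnnt1, slow troponin T, read 4.34 and 4.28 in induced cells, against 11.63, 12.04, 10.38 and 10.91 in embryonic cells, a difference of -6.93 ± 0.48 (adjusted p = 0.000172) or at least 63.4-fold lower. Myl1, a myosin light chain, read 4.59 and 4.36 in induced cells, against 11.44, 11.16, 11.21 and 10.66 in embryonic cells, and Actc1, cardiac actin, read 4.22 and 4.41 in induced cells, against 9.66, 10.04, 9.93 and 9.995 in embryonic cells. The muscle count was 8 without either induced array and 12 without the dimmest embryonic one. Of 9 fixed muscle marker genes on the array, the induced arrays detected 1 and 0, with summed deposited intensities of 53.4 and 21.04. The embryonic arrays detected 6 or 7 of them, summing to 2749 on the dimmest array and between 9962 and 24930 on the others. Mylpf and Myod1 were detected on no array.

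The promoters of 2 of the fallen muscle genes are shown for TATAAA (in capitals), the core letters of the TATA box. Searched on both strands and at any position, it occurs for 5 of 10 fallen muscle genes, counted by gene. It occurs in 13.6% of all promoters, counted singly, so the 2 shares differ in unit. The 11th, Tnni2, is not in the promoter table. The match lies 30 to 25 bases before the start of Tnnt1 (chr7:4515926-4516225, minus strand) and 33 to 38 bases after the annotated start of Actc1 (chr2:114052826-114053125, minus strand), in RefSeq's GRCm38.p6.
Tnnt1: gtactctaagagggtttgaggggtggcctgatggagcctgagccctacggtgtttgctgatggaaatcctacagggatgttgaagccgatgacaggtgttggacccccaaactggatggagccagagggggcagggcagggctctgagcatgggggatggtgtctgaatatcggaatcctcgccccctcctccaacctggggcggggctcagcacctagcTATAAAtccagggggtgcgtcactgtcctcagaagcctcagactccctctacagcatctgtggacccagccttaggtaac
Actc1: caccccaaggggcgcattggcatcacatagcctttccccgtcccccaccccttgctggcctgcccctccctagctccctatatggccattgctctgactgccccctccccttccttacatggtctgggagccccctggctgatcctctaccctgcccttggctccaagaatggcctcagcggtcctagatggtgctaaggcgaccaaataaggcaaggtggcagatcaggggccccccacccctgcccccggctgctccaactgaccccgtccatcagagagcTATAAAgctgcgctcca
These matches are descriptions and say nothing of what binds there.

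Among fibroblast and mesenchymal genes, 17 of 35 measured (of 41) fell and 2 rose, with a median of -1.48. Among all features 6.76% were lower and 5.57% higher. Those that fell were mainly matrix genes. Col5a1, a collagen chain, read 4.29 and 4.58 in induced cells, against 10.85, 9.89, 10.005 and 11.57 in embryonic cells, at least 40-fold lower. Dcn, decorin, was at least 20.3-fold lower, though another probe of Dcn was at -0.60. Pdgfra, a growth factor receptor of mesenchymal cells, fell by 5.92 and Mmp2, which degrades matrix, by 4.79. Twist1, a mesenchymal transcription factor, fell by 1.67. The members that rose are not matrix genes. S100a6, a calcium-binding protein, read 8.30 and 7.24 in induced cells, against 5.35, 4.44, 5.15 and 5.27 in embryonic cells. Cd44, a hyaluronan receptor, read 7.01 and 6.01 in induced cells, against 5.08, 4.49, 5.23 and 5.12 in embryonic cells, though another probe of Cd44 was at 0.05. The starting cells of the induced group were fibroblasts, and the embryonic arrays held the mesenchymal markers. Of 11 such markers on the array, the induced arrays detected 3 and 0 and the embryonic arrays 9 each, apart from 5 on the dimmest. Col1a1 and Postn were detected on no array. The count of falls was 9 or 10 without an induced array.

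Globin and erythroid genes fell in 3 of 7 measured, against 6.76% of all features lower. No induced array detected any of the 7, and the median was -1.52. Hbb-y, an embryonic beta globin, read 4.47 and 4.93 in induced cells, against 9.72, 9.99, 10.67 and 9.38 in embryonic cells. Globin genes are near-identical copies in part, so a probe may not tell them apart. The 5 blood markers summed to 2.55 and 18.6 in deposited intensity on the induced arrays and to 361 to 3997 on the embryonic ones. No endothelial gene was called among 8 measured, and Emcn, a mucin of vessels, was at -1.62 ± 0.46 (adjusted p = 0.0537). Without the dimmest array 3 endothelial genes fell, and without embryonic GFP-high replicate 1 a single one, with list medians of -1.22 and -1.31. Of 14 macrophage genes 3 rose and none fell, with a median of 0.11, against 5.57% higher and 6.76% lower among all features. Lyz2 read 8.61 and 8.17 in induced cells, against 5.98, 4.30, 5.05 and 5.73 in embryonic cells. Its near copy Lyz1 rose by 2.56 and Cd52 by 1.66. The macrophage list held 4 rises and 3 falls without the dimmest array, where its median was -0.06. Fits without an induced array leave 1 array in that group, and its calls were not kept there. Its median was -0.06 also without the induced GFP-medium array and -0.41 under median scaling. Of 7 fixed macrophage markers on the array, the induced arrays detected 4 and 3 and the embryonic arrays 6, 2, 4 and 5. C1qb and Tyrobp were detected on both induced arrays, at differences of 0.29 and 0.30. Aif1 was detected on 1 induced and 4 embryonic arrays. C1qc was detected on 2 embryonic arrays only, C1qa on 1 embryonic array only and Ptprc on no array. The part of these cell types in the results was not tested.

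**Figure D3:**
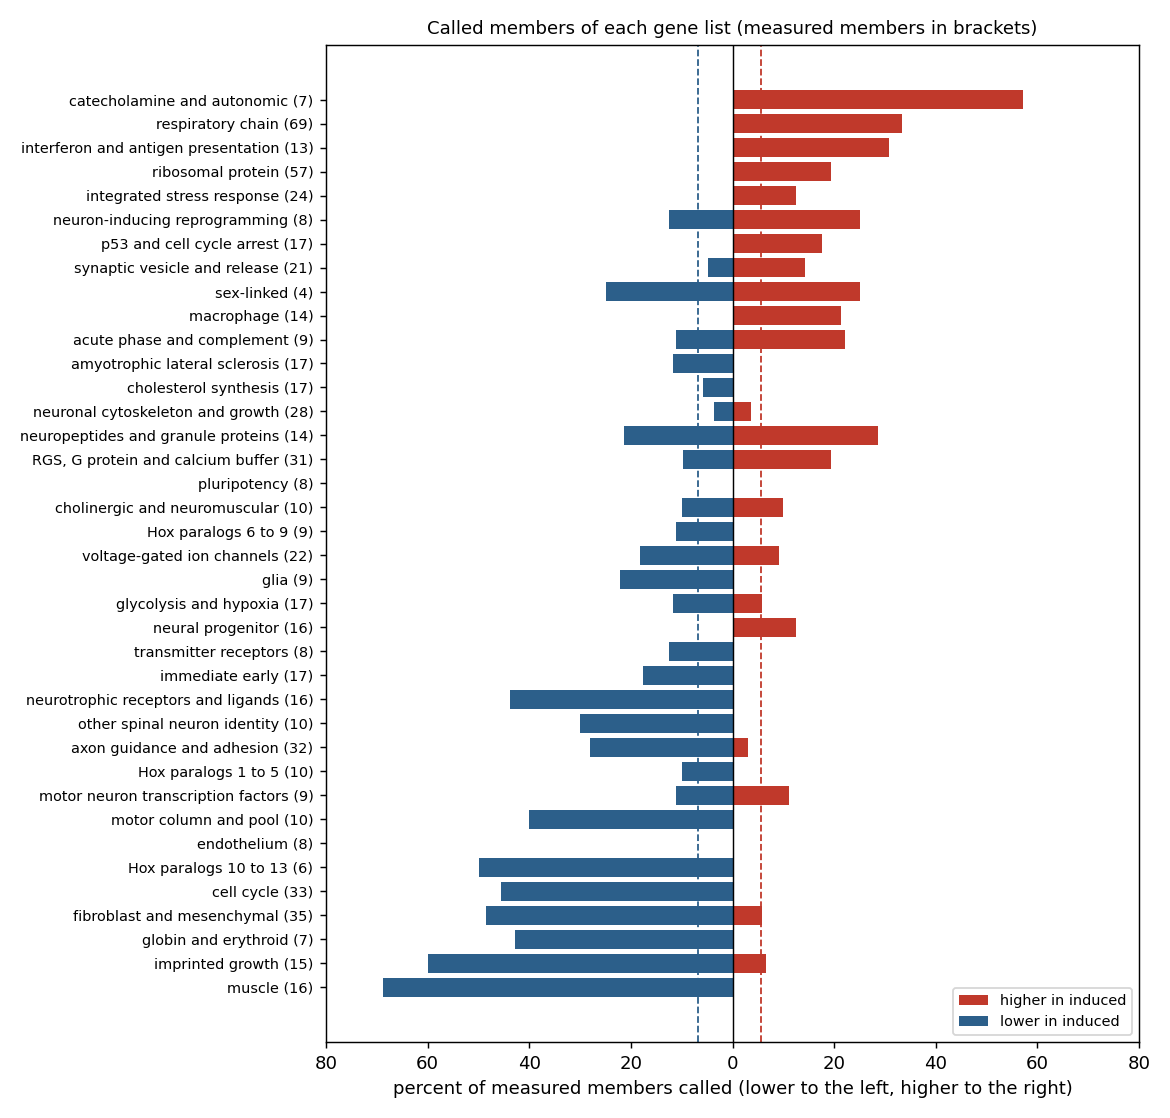
Percent of measured members of each gene list called higher (red, to the right) or lower (blue, to the left) in induced cells, with the measured members in brackets and lists ordered by median difference. Dashed lines are the share of all 9245 features called higher (5.57%) and lower (6.76%). Muscle and imprinted growth genes extend farthest to the left, the catecholamine genes and the respiratory chain to the right.

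Among genes of the mitochondrial respiratory chain, whose subunits pass electrons to oxygen and make ATP, 23 of 69 measured (of 78) rose and none fell, against 5.57% of all features, and 62 had a positive difference, with a median of 1.16. The lead members belong to different complexes: Atp5e and Atp5l, of ATP synthase, Ndufb4 and Ndufc1, of complex I, and Cox7b, of cytochrome oxidase. Atp5e read 10.78 and 10.76 in induced cells, against 6.36, 7.55, 7.80 and 6.65 in embryonic cells, a difference of 3.68 ± 0.47 (adjusted p = 0.00255), and Ndufb4 read 9.42 and 9.91 in induced cells, against 6.54, 7.55, 6.85 and 6.84 in embryonic cells. Among complexes, 13 of 31 complex I subunits rose, 5 of 14 of complex IV, 2 of 7 of complex III, 3 of 13 of complex V and none of 3 of complex II. The mean over the 69 genes was 10.95 and 10.88 on the induced arrays, against 9.63, 10.27, 9.85 and 9.43 on the embryonic arrays. The highest of the embryonic values belongs to the dimmest array, and the part of brightness in the result was not tested. The count of rises depended strongly on the arrays used. It was 2 without the induced GFP-high array, 4 without the induced GFP-medium array, 13, 16 and 15 without embryonic GFP-high replicate 1, GFP-high replicate 2 and GFP-medium replicate 2, and 39 without the dimmest array, while the list median stayed between 0.87 and 1.42. Under median scaling none was called, the list median was 0.93 and the median of all features was -0.49.

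Ribosomal protein genes rose in 11 of 57 measured and none fell, against 5.57% of all features higher, with a median of 0.61. Rps15 read 10.57 and 10.03 in induced cells, against 7.82, 8.73, 8.01 and 7.13 in embryonic cells, and Rpl24 read 8.34 and 7.67 in induced cells, against 5.17, 6.65, 5.31 and 5.21 in embryonic cells. Large-subunit genes rose in 6 of 34 and small-subunit genes in 5 of 23. Their mean was 11.23 and 10.99 on the induced arrays and 10.27, 10.89, 10.46 and 10.23 on the embryonic arrays, so that the dimmest embryonic array again was the highest of its group. Ribosomal protein genes have many processed copies in the mouse genome, and a probe may detect these. The count was 0 and 1 without the induced GFP-high and GFP-medium arrays, 3, 5 and 5 without embryonic GFP-high replicate 1, GFP-high replicate 2 and GFP-medium replicate 2, and 22 without the dimmest array, in which case 2 fell.

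**Figure D4:**
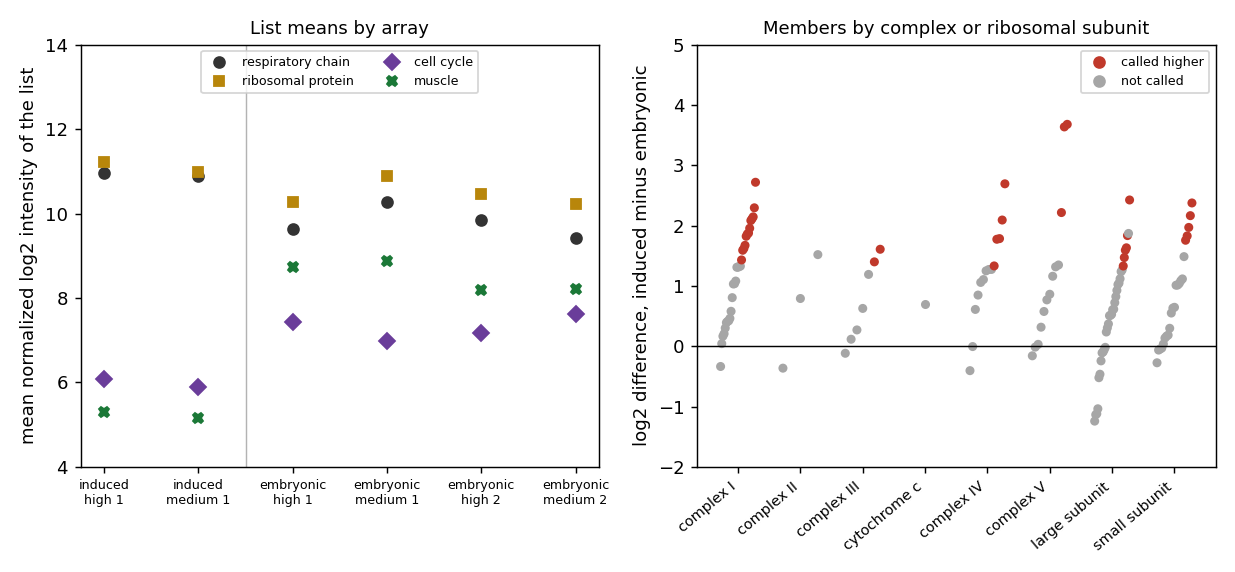
Left, mean normalized log2 intensity of 4 gene lists on each array, with the 2 induced arrays left of the 4 embryonic ones. Right, induced minus embryonic log2 difference of each respiratory chain subunit by complex and of each ribosomal protein by subunit, with called genes in red; 62 of 69 respiratory chain subunits lie above 0.

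Of 33 measured cell cycle genes (of 42), 15 fell and none rose, with a median of -1.32. Among all features 6.76% were lower and 5.57% higher. Cenpa, the centromere histone, read 8.05 and 7.10 in induced cells, against 10.93, 10.31, 11.14 and 11.02 in embryonic cells, and Plk1, a mitotic kinase, read 5.79 and 6.35 in induced cells, against 8.87, 9.54, 8.30 and 10.002 in embryonic cells. Mcm4, of the replicative helicase, fell by 3.11, Cdc20, which activates the anaphase-promoting complex, by 2.88 and Nusap1, of the spindle, by 2.76. Mcm6 was also called, though another of its probes had the opposite sign. Pcna, the replication clamp, was at 0.35 and Mcm7 at 1.20, neither called. The count of falls was 3 without either induced array, 20 without the dimmest embryonic array and 10 without embryonic GFP-high replicate 1. In the list of p53 and arrest genes, 3 of 17 measured rose and none fell, though 1 fell without the dimmest array or embryonic GFP-high replicate 2. Outside this list, Rprm, a p53 target, fell by 6.12 and the cycle inhibitor Cdkn1c by 3.15. Cdkn2b read 8.45 and 7.20 in induced cells, against 4.45, 4.59, 4.90 and 4.43 in embryonic cells, Cdkn1b was detected on both induced and no embryonic array and rose by 1.98, and Cdkn1a, a target of p53, rose by 1.76. The count was 6 without the dimmest array and 1 without the induced GFP-high array, and 2 without each of the other 4. The list median was 0.40 and became -0.13 under median scaling.

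Imprinted growth genes, which are expressed from 1 parental copy, fell in 9 of 15 measured and rose in 1, with a median of -1.72. Among all features 6.76% were lower and 5.57% higher. Igf2, the fetal growth factor, read 5.42 and 4.43 in induced cells, against 13.47, 12.63, 13.27 and 13.73 in embryonic cells, the largest called fall (-8.35 ± 0.42; adjusted p = 4.77e-05). Cdkn1c, a cycle inhibitor, read 10.06 and 10.11 in induced cells, against 13.21, 13.21, 13.32 and 13.16 in embryonic cells, and Ndn, necdin, read 10.07 and 8.98 in induced cells, against 13.02, 13.65, 13.505 and 13.20 in embryonic cells. Mest, Asb4, Grb10, Igf2r, Slc38a4 and Usp29 fell too. Gnas, the stimulatory G protein subunit, rose by 1.27, and Peg3 and Dlk1 were at 0.32 and -0.18. The count of falls was 3 without either induced array.

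Of 16 measured neurotrophic receptors and ligands, 7 fell and none rose, with a median of -0.72. Among all features 6.76% were lower and 5.57% higher. Ptn, pleiotrophin, read 4.35 and 4.25 in induced cells, against 11.54, 11.38, 9.997 and 10.67 in embryonic cells and its relative Mdk, midkine, read 6.38 and 7.03 in induced cells, against 11.77, 11.83, 11.39 and 11.64 in embryonic cells. Among receptors, Ntrk3 fell by 2.17, Ntrk2 by 2.10, Ngfr by 1.99 and Gfra3 by 1.85. Another probe of Ntrk3 was at -0.39 and another of Ntrk2 at -0.24. Ret, the GDNF receptor, was at 0.80 and was not called. In the list of axon guidance and adhesion genes 9 of 32 fell and 1 rose, with a median of -0.75. Nxph1, a neurexin ligand, read 4.36 and 4.45 in induced cells, against 11.67, 9.58, 11.08 and 11.88 in embryonic cells, at least 55.5-fold lower. Nrp1, the semaphorin receptor, read 7.38 and 7.01 in induced cells, against 10.34, 10.36, 11.05 and 10.35 in embryonic cells, and Epha3, an ephrin receptor, read 6.64 and 5.50 in induced cells, against 8.95, 8.51, 9.38 and 8.78 in embryonic cells. Efna5, an ephrin, fell by 1.99 and Sema3a, a secreted repellent, by 1.93. Ncam1 rose by 1.89, and Robo1, a Slit receptor, was at -0.02. Without the induced GFP-high and GFP-medium arrays, 3 and 2 guidance genes and 2 and 2 neurotrophic genes fell.

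Of 28 measured genes of the neuronal cytoskeleton and growth, 1 rose and 1 fell, with a median of -0.02, against 5.57% higher and 6.76% lower among all features. Without single arrays 1 to 3 rose and 0 to 2 fell. Thy1, a surface glycoprotein, read 8.37 and 7.36 in induced cells, against 4.78, 4.32, 5.30 and 4.52 in embryonic cells. Stmn2, which acts on microtubules in growing axons, read 11.49 and 10.91 in induced cells, against 13.20, 12.93, 13.72 and 12.44 in embryonic cells. Tubb3, a neuronal tubulin, read 4.35 and 4.32 in induced cells, against 4.75, 4.30, 4.81 and 5.10 in embryonic cells, detected on 2 embryonic arrays only. Of 21 synaptic genes, 3 rose and 1 fell: Syn1 and Syn2, which tether vesicles, rose by 1.85 and 2.40, Vamp1, a vesicle fusion protein, by 3.03, and Sncg, gamma-synuclein, fell by 2.67. Without single arrays, 0 to 3 synaptic genes rose and 0 to 2 fell, with no call without either induced array. The synaptic median of 0.31 became -0.05 under median scaling. Of 22 voltage-gated channel genes 2 rose and 4 fell, and without single arrays 1 or 2 rose and 0 to 4 fell, the lowest count of falls being without the induced GFP-high array. Cacna2d1, an auxiliary calcium channel subunit, read 12.78 and 12.82 in induced cells, against 9.90, 9.98, 9.01 and 9.02 in embryonic cells, and Kcnc1 rose by 1.49. Kcnab1, a potassium channel subunit, read 4.35 and 5.19 in induced cells, against 7.62, 8.43, 10.26 and 7.87 in embryonic cells, and Cacna2d3, a relative of Cacna2d1, fell by 2.47. Cacnb4, Kcnk2 and Glra2, a glycine receptor subunit, fell too. The channel list also holds related channels that are not voltage-gated, such as Kcnk2. It does not hold Kcnh1, the voltage-gated potassium channel given above, which rose by 3.97. Of 31 genes of G protein signalling and calcium buffering, 6 rose and 3 fell. Pvalb, parvalbumin, read 9.22 and 8.86 in induced cells, against 5.31, 4.65, 6.17 and 5.04 in embryonic cells, and Gng8, a G protein gamma subunit, read 9.06 and 8.95 in induced cells, against 5.83, 5.92, 5.08 and 5.12 in embryonic cells. Rgs5 and Rgs8, which limit G protein signalling like Rgs4, fell by 2.84 and 2.51. The 6 and 3 calls of this list were 3 and 1 without either induced array, and 10 and 4 without the dimmest embryonic array.

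Markers of other spinal neurons fell in 3 of 10 measured and none rose, with a median of -0.75. Among all features 6.76% were lower and 5.57% higher. Slc17a6, the vesicular glutamate transporter, read 5.66 and 5.54 in induced cells, against 11.39, 8.64, 10.72 and 11.26 in embryonic cells, and Slc32a1, the transporter of inhibitory transmitters, read 4.42 and 4.46 in induced cells, against 11.30, 7.84, 8.05 and 11.07 in embryonic cells. Lhx5, a factor of dorsal and ventral interneurons, was detected on no induced array and fell by 3.75. In all 3 the embryonic GFP-medium replicate 1 array lay lowest of its group, though for Slc32a1 embryonic GFP-high replicate 2, at 8.05, was close to it. The list's count of falls was 6 without the dimmest array, with a median of -1.59, and 1 without either induced array. Neural progenitor genes rose in 2 of 16: Dll3 and Olig1, by 2.61 and 1.84. Dll3 encodes a Notch ligand and Olig1 a factor of the motor neuron and oligodendrocyte lineage. Nes, nestin, was at -1.999 ± 1.01 and was not called. The 2 rises were 0 and 1 without the induced GFP-medium and GFP-high arrays and 1 without embryonic GFP-high replicate 2. Of 8 measured genes used to induce neurons, 2 rose and 1 fell. Neurod1, a proneural factor, read 10.28 and 10.42 in induced cells, against 6.38, 8.19, 7.88 and 7.36 in embryonic cells, and Zic1, a dorsal patterning factor, read 4.51 and 4.31 in induced cells, against 9.10, 8.33, 9.02 and 10.24 in embryonic cells. Neither rise was called without either induced array. Of 9 glial genes 2 fell, and Slc1a3, the glutamate transporter of radial glia, fell by 3.21 and Gjb2 by 1.86. The glial count was 1 without either induced array, embryonic GFP-high replicate 2 or embryonic GFP-medium replicate 2. Gja1, a gap junction protein of glia and mesenchyme outside these lists, read 5.11 and 5.23 in induced cells, against 11.66, 10.02, 11.91 and 12.22 in embryonic cells. Rprm, a p53 target, and Tceal5 were the other large falls, at -6.12 ± 0.74 and -6.45 ± 0.43.

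Interferon and antigen presentation genes rose in 4 of 13 measured and none fell, against 5.57% higher and 6.76% lower among all features. Their median of 0.66 became 0.02 under median scaling. Ifi27 read 10.37 and 10.20 in induced cells, against 7.24, 8.03, 7.41 and 7.03 in embryonic cells, and B2m, of the class I complex, read 8.33 and 8.07 in induced cells, against 6.27, 6.33, 7.41 and 6.51 in embryonic cells. Psmb10, of the immunoproteasome, rose by 1.74 and Ifitm2 by 1.63. The count was 0 without the induced GFP-high array and 2 without the induced GFP-medium array or embryonic GFP-medium replicate 2. Stat3, which carries cytokine signals, read 11.63 and 11.55 in induced cells, against 9.90, 10.03, 9.57 and 9.82 in embryonic cells. Of 9 acute phase and complement genes, 2 rose and 1 fell. Serpina3n and Stat3 rose, and Cxcl12, a chemokine, fell by 3.95, though another probe of Cxcl12 was at -0.19. Of 24 genes of the integrated stress response 3 rose and none fell: Nupr1 by 2.48, Ddit3, the CHOP factor, by 2.29 and Shmt2, of one-carbon metabolism, by 1.91. The median of 0.43 became -0.05 under median scaling, and Ddit4 was at -1.998 ± 0.59, not called. The stress response count was 0 and 1 without the induced GFP-high and GFP-medium arrays and 1 without embryonic GFP-high replicate 2. Immediate early genes fell in 3 of 17. Fos read 7.47 and 7.78 in induced cells, against 10.68, 9.57, 9.93 and 9.99 in embryonic cells. Fosb fell by 2.94 and Ccn1 by 2.76, though another probe of Ccn1 was at -0.45. That count was 1 without either induced array and 5 without the dimmest array.

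The remaining lists are given beside 5.57% higher and 6.76% lower among all features. Of 17 glycolysis and hypoxia genes 1 rose and 2 fell. Vegfa, the vascular growth factor, rose by 1.42, and the glycolytic enzyme genes Hk2 and Pfkl fell by 3.77 and 1.34. Another probe of Pfkl was at -0.16. The induced and embryonic arrays overlapped for Hk2. Of 17 cholesterol genes 1 fell, Srebf2, the master regulator of the pathway, by 1.85. That list held no call without embryonic GFP-high replicate 1 or GFP-medium replicate 2. Of 17 amyotrophic lateral sclerosis genes 2 fell, Vapb by 2.89 and Hnrnpa2b1 by 1.48, and another probe of Hnrnpa2b1 had the opposite sign. No gene was called among 8 pluripotency genes, with Dppa5a at 0.67 ± 0.49, and 1 of 8 transmitter receptors fell (Glra2, by 5.36). Of 4 sex-linked genes 1 rose, 1 fell and 2 were not called. Each induced array detected only 1 of the 4, Eif2s3y, and the embryonic arrays detected 4, 2, 3 and 4. Eif2s3y, a Y-linked gene, read 9.40 and 9.23 in induced cells, against 8.24, 8.11, 7.74 and 7.36 in embryonic cells. Xist, the RNA that silences an X chromosome, read 4.57 and 4.63 in induced cells, against 6.38, 5.94, 7.27 and 7.16 in embryonic cells, though another probe of Xist was at -0.50. Eif2s3y was called higher by 1.45, though not without embryonic GFP-high replicate 1, GFP-high replicate 2 or GFP-medium replicate 2. Xist was called lower by 2.09. Neither was called without either induced array, and the glycolysis, cholesterol and sclerosis lists held at most 1 call in those fits.

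All 1140 called features had the same sign in the GFP-high and in the GFP-medium gate, as did 75.9% of all features. The calls came from the same arrays, in a fit that counts disagreement between gates as spread. Agreement in sign among called features was therefore largely set by the call. Across all features the 2 sets of differences correlated at 0.786, a description across genes, since genes are not independent replicates. When each gate was fitted on its own, 358 features were called in the GFP-high gate and 340 in the GFP-medium gate. They shared 194, all of the same sign, which are 54.2% and 57.1% of the lists. The share called higher was 34.1% and 24.4% in these fits, against 45.2% in the fit of both gates. The limma interaction test, of a difference that itself differs between gates, called 0 features, and 134 (1.45%) had an unadjusted p under 0.05. With 1 induced array a gate, the test cannot show that such differences are absent. Each gate holds 1 induced array, and on simulated data the fits of a single gate made more false calls than their threshold allows, so these counts are descriptions.

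**Figure D5:**
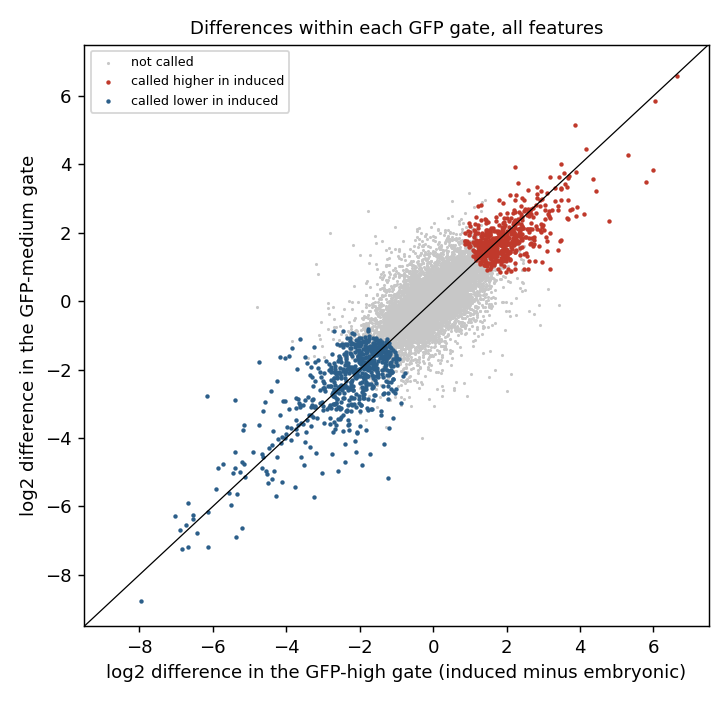
Induced minus embryonic log2 difference of each of the 9245 features in the GFP-high gate (x axis, 1 induced against 2 embryonic arrays) and in the GFP-medium gate (y axis, the same numbers), with called features in red (higher) and blue (lower). The line marks equal differences, and all called points lie in the lower left or upper right quadrant, which the call on these same arrays favours.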

How the data were processed

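Illumina MouseRef-8 bead arrays of 2 induced and 4 embryonic samples were used, and groups came from the sample titles. The authors' deposited table gives a linear intensity for every probe on every array. Per the submitters' processing notes it came out of BeadStudio, with no version stated. Some of these are negative, so a background had already been taken off. Each probe also has the authors' detection p-value, 1 an array, per the file headers. Another deposited table of normalized intensity, made by a method that no label or header names, served as an alternative.

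The platform annotation gives 1 gene symbol for 23978 of the 25697 probes, several for 0 and none for 1719. In R 4.3.3, limma 3.58.1 applied its normexp background correction to the 6 arrays (detection p-values, offset of 16), and values were brought to log2 and quantile normalized. A probe was kept where 2 or more of the 6 arrays had its detection p below 0.01 (11331 probes), and each gene was represented by its kept probe with the highest mean. The 9245 features are 8567 genes with a symbol and 678 probes without. For 1694 genes several probes were kept, and 26 of the 233 called genes among them had probes of opposite sign. limma's lmFit and eBayes fitted origin with the GFP gate as covariate, two-sided, with 3 residual degrees of freedom, and Benjamini-Hochberg adjusted p-values over all features. A second fit added the interaction of origin and gate. The fits of each gate alone, the additive fit and the motif search were tested on simulated data with known answers. There the false calls exceeded the adjusted threshold slightly in the additive fit and clearly in the fits of a single gate. The number of arrays limits the precision.

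Named genes were up to 10 of the largest called rises and falls with non-overlapping groups, up to 5 called members of each of 38 lists (3 as values where none was called), up to 6 of the largest bounds in genes detected in 1 origin only, and 9 genes always. Some further members are named that were chosen after their values were seen. Members, lists and tests were chosen with earlier results of these data known. Replicate numbers were shared by the embryonic gates only, and the differences between replicates correlated at -0.088 between gates, so the numbers were not taken to pair arrays. Promoter sequences are RefSeq's, of GRCm38.p6.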

Additional observations from a re-analysis of the deposited data

Results flagged for a closer look

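In 10 of the 139 named genes, 1 of the 4 embryonic arrays stood far from the other 3 for the spread of that group. Chance gives such a gap in about 1 in 20 groups. On embryonic GFP-medium replicate 1, the dimmest array, the high values were Rpl24 at 6.65, Rpl27 at 11.08, Sprr2f at 4.93 and Dppa5a at 6.52. On embryonic GFP-high replicate 2 the high values were Nrp1 at 11.05, Syn1 at 10.41 and Opalin at 4.59, and the low ones Ifitm2 at 5.45 and Th at 4.27. On embryonic GFP-medium replicate 2, Hoxd4 was high at 9.55. Sprr2f, Opalin and Th were detected on no embryonic array.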

How the results depend on the processing

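The count of 1140 called features was between 983 and 1630 with no background correction (1160), an offset of 50 (1033), the authors' normalized table (983), detection on at least 4 of the 6 arrays (1069), the mean of a gene's probes (1120), no gate covariate (1436), an intensity trend with a robust prior (1180) and the gates averaged (1630). It was 584 with no filter on dim probes, 3682 with array weights, which gave the dimmest array a weight of 0.236, 123 when all 10 arrays entered the fit, 358 and 340 in the GFP-high and GFP-medium gates alone and 11 with median scaling, where 27.3% of calls were higher, against 45.2%. With all 10 arrays 35% were higher. Leaving out single arrays gave 178 to 1924. The cause of these changes was not tested, apart from fewer arrays or more features in the fits that say so. The sign of Chat turned under median scaling (-0.20), in the GFP-medium gate alone (-0.25), and without 3 of the single arrays, the range over all 6 being -0.39 to 0.918. The sign of Isl1 turned under median scaling (-0.051) and without embryonic GFP-high replicate 1, the range without single arrays being -0.17 to 0.785. No other named gene turned. The interaction test called 0 under each of 4 other settings run. A replicate block, as a random effect because induced titles carry no replicate number, gave 1207 calls with each induced array as its own block and 1408 with both as 1 block (consensus correlations of -0.072 and -0.095). Dim arrays limit what low transcripts can show: the lowest detected log2 value was 4.68 to 5.81.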
